A study of Homo sapiens with 2 samples.

Results

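The neural and crest cadherins described here are 7 genes, CDH2, CDH4, CDH6, CDH7, CDH8, CDH11 and CDH19, chosen by name as family members known from neural tissue and from the neural crest. The choice was made with earlier results of these data known. All 7 were among the 33694 genes of both count tables. CDH2 and CDH4 encode type I (classical) cadherins, and CDH6, CDH7, CDH8, CDH11 and CDH19 encode type II cadherins. They were followed across the cell types and subclusters that the authors annotated in enteric neural crest cultures of H9, a line of human embryonic stem cells. One library came from day 10 of enteric neural crest induction, in adherent culture on Geltrex, and 1 library came from free-floating enteric crestospheres at day 15.

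Both groups passed through the same induction. Medium with BMP4, SB431542 and CHIR 99021 was followed by medium with SB431542 and CHIR 99021, and then by the same medium with retinoic acid, in which the day 10 cells were taken. For the day 15 group, the monolayer was detached with Accutase at day 12, and cells were kept in suspension in neurobasal medium with FGF2, CHIR 99021, N2 and B27. Each library pooled 2 biological repeats of a single line, and the cells could not be assigned to their repeat, so each stage is 1 sample. No difference had a replicate check, no test was made, and all intervals cover counting error only. Stage, culture format, medium and library cannot be told apart.

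Cadherins are calcium-dependent adhesion molecules that bind to cadherins on the neighbouring cell and connect to the actin cytoskeleton through catenins. The neural tube is known for N-cadherin, the product of CDH2, whereas surface epithelia carry E-cadherin, the product of CDH1. Neural crest cells change their set of cadherins as they leave the neural tube and migrate, and type II cadherins such as CDH6, CDH7, CDH11 and CDH19 have been described at different steps of that path. CDH19 is known as a marker of migrating crest and of Schwann cell precursors. R-cadherin, from CDH4, and the product of CDH8 are best known from the developing brain.

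The 7 genes lie on 4 chromosomes of GRCh38 (GENCODE 29). CDH2 spans chr18:27950966-28177446 on the minus strand, CDH4 chr20:61252426-61940617 on the plus strand, CDH6 chr5:31193750-31329146 on the plus strand and CDH7 chr18:65750252-65890341 on the plus strand. CDH8 spans chr16:61647242-62037035, CDH11 chr16:64943753-65126112 and CDH19 chr18:66501083-66604138, all 3 on the minus strand. CDH7 and CDH19 are neighbours 610.7 kb apart, with 0 protein-coding genes between them, and CDH8 and CDH11 lie 2906.7 kb apart, also with 0 protein-coding genes between. As described below, the genes of the first pair were found in different cell types, and so the 250 bases before each annotated start are shown (RefSeq, GRCh38.p14, 5′ to 3′ on the strand of the gene). The promoter table matched 5 of the 7 genes, without CDH6 and CDH11. The CDH7 sequence is chr18:65750002-65750251 on the plus strand, before the first of 2 listed starts, and the CDH19 sequence is chr18:66604091-66604340 on the minus strand. Capitals mark ACAAAG, a core that SOX factors such as SOX10 are known to bind.
CDH7: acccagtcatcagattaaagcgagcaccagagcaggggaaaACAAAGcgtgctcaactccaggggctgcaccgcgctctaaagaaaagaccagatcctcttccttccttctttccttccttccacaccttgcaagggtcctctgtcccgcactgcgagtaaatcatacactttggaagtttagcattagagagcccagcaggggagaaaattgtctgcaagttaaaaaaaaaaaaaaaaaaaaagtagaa
CDH19: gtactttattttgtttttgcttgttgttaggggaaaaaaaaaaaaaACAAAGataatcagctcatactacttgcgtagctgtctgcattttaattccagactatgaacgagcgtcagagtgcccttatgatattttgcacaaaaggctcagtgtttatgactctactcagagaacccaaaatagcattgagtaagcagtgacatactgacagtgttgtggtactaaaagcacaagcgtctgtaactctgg
ACAAAG was searched on both strands of windows of 300 bases, 250 before and 50 after the start. It was found 1 time in each of these windows, as in 16.1% of 35116 promoters, so its presence in both is a description of the letters alone. The GC content of the window was 45.7% for this start of CDH7 and 39.3% for CDH19, against a median of 58.7% over all promoters. The window of the other CDH7 start, not shown, held 0 copies of ACAAAG and had a GC content of 78.3%.

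The day 10 library held 9627 cells with a median of 6713 unique molecular identifiers (UMIs, each counting 1 captured RNA molecule), and the day 15 library held 6320 cells with a median of 11770.5 UMIs. Among all deposited cells, 102 cell barcodes occurred in both libraries. After the authors' quality limits, 7295 and 5336 cells remained. At day 10 these were 4921 enteric neural crest cells (ENCCs), 1811 neuro-epithelial progenitors (NEP), 324 cranial placode cells (CP) and 239 cells of non-neural ectoderm (NNE). At day 15 they were 4934 ENCCs, 208 and 43 cells of the cranial placode clusters CP1 and CP2, 104 NEP and 47 mesenchymal cells (Mes). The classes come from clusters of the same counts, so differences between classes are descriptions. Levels are in CPM (counts per 1e6), the sum of a gene's UMIs in a class scaled to the total UMIs of that class.

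Some leading markers followed the class names, with exceptions in ENCC, NEP, CP1, CP2 and Mes. SOX10, a crest transcription factor, had 120 CPM in ENCCs and 12.6 CPM in NEP cells at day 10, and 103 CPM in ENCCs at day 15. FOXD3 and ERBB3 were likewise highest in ENCCs among the day 10 cell types, but the listed ENCC markers TFAP2A, TFAP2B and PAX3 were not. TFAP2A had 35.6 CPM in ENCCs against 400 in NNE, TFAP2B 425 against 473 in CP, and PAX3 65.0 against 89.5 in NEP. WNT2B and PAX6 had 827 and 572 CPM in day 10 NEP cells, but the neural progenitor genes SOX1, LHX2 and HES5 were at 0.214, 0 and 0.142 CPM there, and KRT18, a simple epithelial keratin, was at 538 CPM. TWIST1 had 162 CPM in Mes cells. COL1A2, also a listed Mes marker, had 166 CPM there but 248 CPM in day 15 NEP cells and 424 CPM in day 10 ENCCs. The other listed Mes markers were highest in Mes among the day 15 cell types. NEUROD1 had 530 CPM in CP1 cells, and the neuronal gene STMN2 had 1543 CPM in CP1 and 3304 CPM in CP2 cells. In CP1 the 6 listed neuron markers summed to 2274 CPM and the 6 placode markers to 1222 CPM. In CP2 the neuron markers summed to 5468 CPM and the placode markers to 323 CPM, with PAX6 at 381 CPM. In NEP cells of day 15 the 6 listed NNE markers summed to 957 CPM and the 6 NEP markers to 267 CPM. A set of 256 cells at day 10 was annotated ENCC but lay outside the ENCC subclusters. In these cells SOX10 was at 26.2 CPM and WNT2B at 649 CPM, and values without them are given beside the ENCC results that turn on them.

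CDH2 was highest in NEP cells at both stages and several-fold lower in ENCCs. At day 10 its level was 135 CPM in NEP (95% Poisson interval 129 to 142, 1900 UMIs), 32.7 in CP (26.0 to 40.6), 31.9 in ENCCs (30.1 to 33.8, 1180 UMIs) and 4.87 in NNE (2.23 to 9.25, 9 UMIs). At day 15 it was 168 CPM in NEP (145 to 194), 115 in CP1 (102 to 129), 107 in CP2 (77.4 to 144), 28.1 in ENCCs (26.7 to 29.5, 1567 UMIs) and 16.0 in Mes (7.34 to 30.5). The order of CP and ENCC at day 10, of CP1 and CP2, and of ENCC and Mes at day 15 did not exceed the counting error. All other neighbours in these orders did. The placode classes differed between stages, with a CP1 level 3.51 times (2.73 to 4.55) that of CP at day 10, though the clusters were made separately. Neuronal genes were present at both stages and higher at day 15. The 6 listed neuron markers summed to 531 CPM in CP, 2274 CPM in CP1 and 5468 CPM in CP2.

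CDH2 was detected broadly in NEP cells. To make depths equal, 3000 UMIs were drawn at random from every cell that had as many (thinning), and a CDH2 UMI was then found in 33.3% of NEP cells at day 10 (95% Clopper-Pearson interval 31.1 to 35.5) and in 44.2% at day 15 (34.5 to 54.3). In ENCCs the share was 8.19% at day 10 and 8.37% at day 15, against 18.9% and 25.7% before thinning. In the numbered subclusters alone it was 7.05% (6.33 to 7.83) and 8.29% (7.54 to 9.10) after thinning. In NNE, the ectodermal class in which CDH1 stood at 94.2 CPM, it was 1.28% after thinning (0.264 to 3.69), so the ENCC share lay above the share in a class low for the gene.

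CDH6 was found in crest, neural and placode classes, and in ENCCs and NEP it was higher at day 15 than at day 10. At day 10 it had 83.1 CPM in NEP (78.4 to 88.0, 1166 UMIs), 66.2 in CP (56.5 to 77.1), 50.6 in ENCCs (48.3 to 52.9, 1869 UMIs) and 5.96 in NNE (2.97 to 10.7, 11 UMIs). At day 15 it had 198 CPM in CP1 (180 to 216), 163 in ENCCs (159 to 166, 9088 UMIs), 125 in NEP (105 to 147), 27.4 in CP2 (13.7 to 49.0) and 3.57 in Mes (0.432 to 12.9, 2 UMIs). All neighbours in both orders differed beyond the counting error, but the order of CP1 and ENCC turned with the scaling, as given below.

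The placode clusters stood apart in CDH6. CP1 exceeded CP2 by 7.22 times (4.00 to 14.6), and the 11 UMIs of CP2 lay in 5 of its 43 cells, 7 of them in a single cell. CDH8 differed the other way, 17.8-fold lower in CP1 than in CP2 (3.19 to 181) from 2 and 6 UMIs. CDH2 (115 against 107 CPM) and CDH7 (44.0 against 54.7 CPM) did not differ between both clusters beyond the counting error. After thinning, 37.9% of ENCCs had a CDH6 UMI at day 15 (36.6 to 39.3) and 13.8% at day 10 (12.9 to 14.8), whereas 1.28% of NNE cells did. Unthinned, the ENCC shares were 75.7% and 28.6%.

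**Figure D1:**
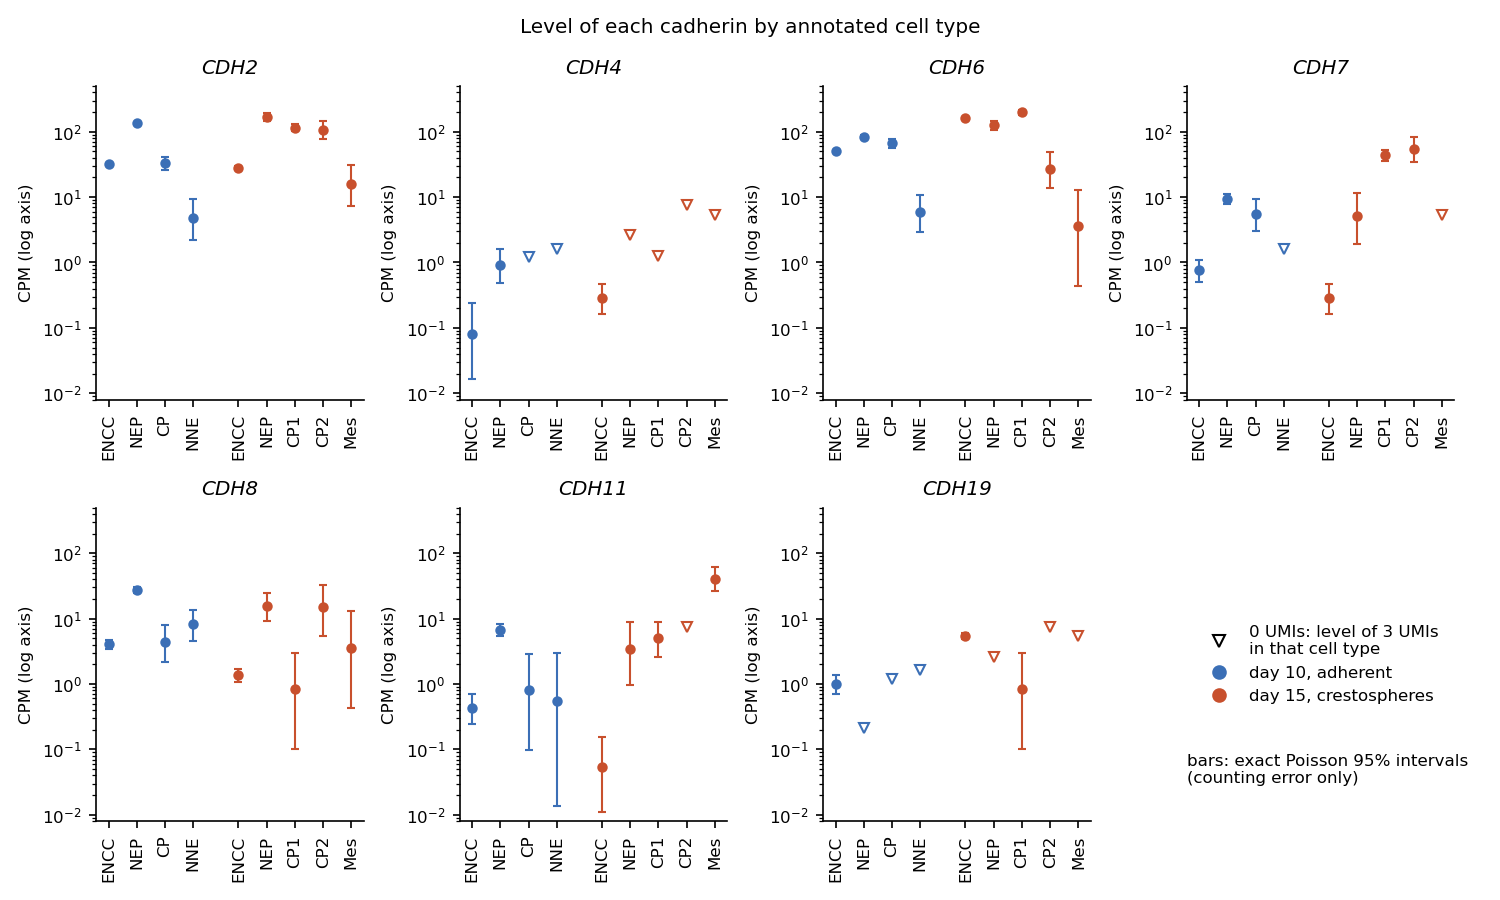
Level in CPM (log axis) of each cadherin in the annotated cell types of day 10 (blue) and day 15 (red), with exact Poisson 95% intervals for counting error; open triangles mark classes with 0 UMIs, drawn at the level of 3 UMIs. CDH2 was highest in NEP cells, CDH6 spread over ENCC, NEP and CP1, CDH7 was highest in CP1 and CP2, CDH11 in Mes, and CDH19 was seen in ENCCs with 2 further UMIs in CP1.

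CDH7 was highest in CP2 and CP1, the clusters annotated as cranial placode at day 15. It had 54.7 CPM in CP2 (34.3 to 82.9, 22 UMIs), 44.0 in CP1 (36.0 to 53.2, 105 UMIs), 5.23 in NEP (1.92 to 11.4, 6 UMIs), 0.286 in ENCCs (0.164 to 0.465, 16 UMIs) and 0 UMIs in Mes. At day 10 it had 9.26 CPM in NEP (7.74 to 10.996, 130 UMIs), 5.58 in CP (3.05 to 9.37, 14 UMIs), 0.758 in ENCCs (0.504 to 1.10, 28 UMIs) and 0 in NNE, where 3 UMIs would be 1.63 CPM. CP2 and CP1 did not differ beyond the counting error, nor did NEP and CP at day 10. Of the 28 UMIs in day 10 ENCCs, 23 came from the 256 cells outside the subclusters, and the numbered subclusters held the other 5 (0.144 CPM).

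After thinning, 11.1% of CP1 cells (7.14 to 16.1) and 11.6% of CP2 cells (3.89 to 25.1) had a CDH7 UMI, against 0.0405% of ENCCs at day 15. The ENCC share is near that of single UMIs, and a low expression in crest cells cannot be told apart from free RNA at this depth. CP1 had 7.87 times (4.49 to 14.9) the CDH7 level of the placode class at day 10.

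CDH8 was highest in NEP cells. At day 10 it had 27.5 CPM in NEP (24.8 to 30.4, 386 UMIs), 8.12 in NNE (4.55 to 13.4, 15 UMIs), 4.39 in CP (2.19 to 7.85) and 4.06 in ENCCs (3.44 to 4.76, 150 UMIs). Without the 59 UMIs of the cells outside the subclusters, the ENCC level was 2.62 CPM (2.11 to 3.22). NEP exceeded NNE by 3.38 times (2.03 to 6.11), NNE and CP, and CP and ENCC, did not differ beyond the counting error, whereas NNE exceeded ENCC (95% interval of the ratio 1.09 to 3.41). At day 15 it had 15.7 CPM in NEP (9.30 to 24.8), 14.9 in CP2 (5.48 to 32.5, 6 UMIs), 3.57 in Mes (2 UMIs), 1.38 in ENCCs (1.09 to 1.72) and 0.837 in CP1 (2 UMIs). No neighbours in the day 15 order differed beyond the counting error, although NEP exceeded ENCC by 11.4 times (6.41 to 19.2).

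CDH11, known from mesenchyme and from cranial crest, had its highest level in the 47 Mes cells of day 15. It had 41.0 CPM there (26.0 to 61.5, 23 UMIs), in 38.3% of the cells before and 8.51% after thinning, against 5.02 in CP1 (2.60 to 8.78, 12 UMIs), 3.49 in NEP (4 UMIs), 0.0537 in ENCCs (0.0111 to 0.157, 3 UMIs) and 0 UMIs in CP2. At day 10 it had 6.70 CPM in NEP (5.41 to 8.19, 94 UMIs), 0.798 in CP (2 UMIs), 0.542 in NNE (1 UMI) and 0.433 in ENCCs (16 UMIs, 10 of them outside the subclusters). ENCCs of either stage thus held few CDH11 molecules.

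CDH19, the neighbour of CDH7 on chromosome 18 whose start is shown above, was found in ENCCs. Among annotated cells at day 10, all 37 of its UMIs were in ENCCs (1.00 CPM, 0.705 to 1.38), with 0 UMIs in 1811 NEP, 324 CP and 239 NNE cells. Among those at day 15, 301 of its 303 UMIs were in ENCCs (5.39 CPM, 4.80 to 6.03), and the other 2 lay in 1 cell of CP1. None of the 256 day 10 cells outside the subclusters had a CDH19 UMI. Against the floor of 3 UMIs in NEP, CDH19 was at least 4.69-fold higher in day 10 ENCCs, and an interval that also counts the error of the ENCC level began at 3.62-fold. The small classes allowed less. In NEP of day 15 the upper limit of the ratio to ENCCs was 0.60, but in CP and NNE of day 10 it reached 1.54 and 2.10, and in CP2 and Mes of day 15 it reached 1.71 and 1.23, so that a level like that of ENCCs was not detectable there at this depth. Before thinning, 0.691% of ENCCs at day 10 and 5.65% at day 15 had a CDH19 UMI, and after thinning 0.285% and 1.62%.

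CDH4 was close to absent. It had 24 UMIs among all cells of day 10 (0.340 CPM) and 23 among those of day 15 (0.271 CPM), never more than 1 in a cell. In day 10 NEP cells 13 UMIs gave 0.926 CPM (0.493 to 1.58), and 3 UMIs gave 0.0812 CPM in ENCCs. At day 15, 16 UMIs in ENCCs gave 0.286 CPM and no other annotated class had any. In those classes 3 UMIs would be 1.26 CPM (CP1), 2.62 (NEP), 5.35 (Mes) and 7.46 (CP2). A level like that of ENCCs was therefore not detectable there.

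The make-up of the cadherin UMIs differed among classes. UMIs were not divided by gene length and genes differ in capture, so shares compare classes and not genes. Among the UMIs of the 7 genes, CDH2 held 51.5% in NEP (49.9 to 53.1) and 35.9% in ENCCs (34.3 to 37.6) at day 10, and 53.0% in NEP and 14.2% in ENCCs (13.5 to 14.8) at day 15. CDH6 held 31.6% in NEP and 56.9% in ENCCs at day 10, and 39.3% and 82.1% (81.4 to 82.8) at day 15. Per CDH2 UMI there were 0.614 CDH6 UMIs in NEP (0.570 to 0.660) and 1.58 in ENCCs (1.47 to 1.71) at day 10, and 0.741 (0.593 to 0.925) and 5.80 (5.50 to 6.12) at day 15. In the numbered subclusters the ENCC values were 1.87 (1.72 to 2.03) and 5.84 (5.53 to 6.16). CDH11 held 63.9% of the 36 cadherin UMIs in Mes. In NNE the 7 genes together had 36 UMIs (19.5 CPM), against 174 UMIs of CDH1 alone, and CDH1 had 13 UMIs in day 10 ENCCs and 6 in day 15 ENCCs.

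**Figure D2:**
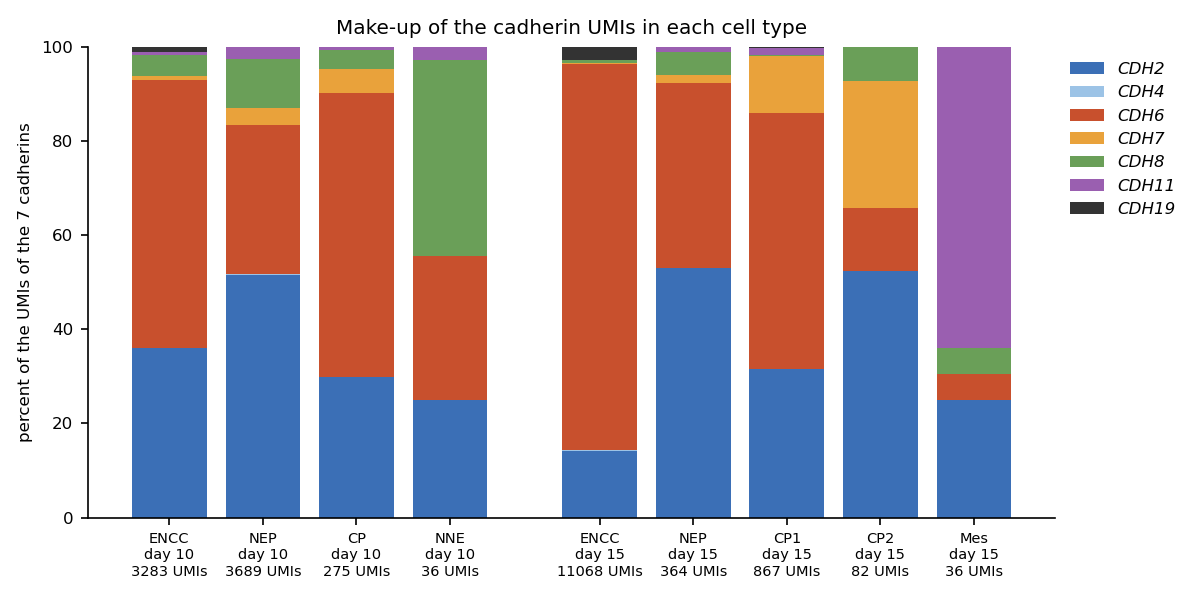
Percent of the UMIs of the 7 cadherins that each gene held in each cell type, with the number of UMIs under each bar. CDH6 took 56.9% of the bar of day 10 ENCCs and 82.1% of that of day 15 ENCCs, CDH2 took 51.5% and 53.0% of the NEP bars, and CDH11 took 63.9% of the Mes bar.

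Within ENCCs the subclusters were labelled ENCC 1 to 4 at day 10 and ENCC 1′ to 4′ at day 15, and numbers do not match between the stages. CDH2 was even across the day 10 subclusters, with 25.4, 26.4, 23.6 and 27.5 CPM in ENCC 1, 2, 3 and 4, and no neighbours in this order differed beyond the counting error. The 256 cells outside had 129 CPM (115 to 145), near the NEP level. At day 15 CDH2 had 26.9, 31.7, 19.8 and 17.8 CPM in ENCC 1′, 2′, 3′ and 4′. ENCC 2′ exceeded ENCC 1′ by 1.18 times (1.06 to 1.32) and ENCC 1′ exceeded ENCC 3′ by 1.36 times (1.14 to 1.63).

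CDH6 varied more among the day 10 subclusters. It had 81.9 CPM in the 1129 cells of ENCC 2 (75.8 to 88.4), 38.7 in ENCC 1 (36.2 to 41.3), 36.5 in ENCC 3 (82 UMIs) and 21.7 in ENCC 4 (14.7 to 31.0), so that ENCC 2 stood 2.12 times (1.91 to 2.34) above ENCC 1. Per CDH2 UMI there were 3.10 CDH6 UMIs in ENCC 2 (2.66 to 3.64) and 1.52 in ENCC 1 (1.37 to 1.69). At day 15 every subcluster was above ENCC 2 of day 10, with 180, 162, 130 and 137 CPM in ENCC 1′, 2′, 3′ and 4′, and ENCC 3′ and 4′ did not differ beyond the counting error.

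CDH19 did not separate the subclusters of either stage beyond the counting error. It had between 0.724 CPM (ENCC 4, 1 UMI) and 1.34 CPM (ENCC 3, 3 UMIs) at day 10, and 6.003, 5.33, 4.76 and 3.30 CPM in ENCC 1′ to 4′. The lowest CDH19 interval bound of ENCC 1′, 2′ and 3′, 3.38 CPM, lay above the level in each of the day 10 subclusters, although the intervals of ENCC 3 and 4 reached 3.90 and 4.03 CPM. ENCC 4′ had 5 UMIs, and its interval of 1.07 to 7.70 CPM overlapped the day 10 levels. CDH8 had between 1.45 and 3.12 CPM in the day 10 subclusters, against 26.2 CPM in the cells outside, and at most 2.20 CPM at day 15.

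**Figure D3:**
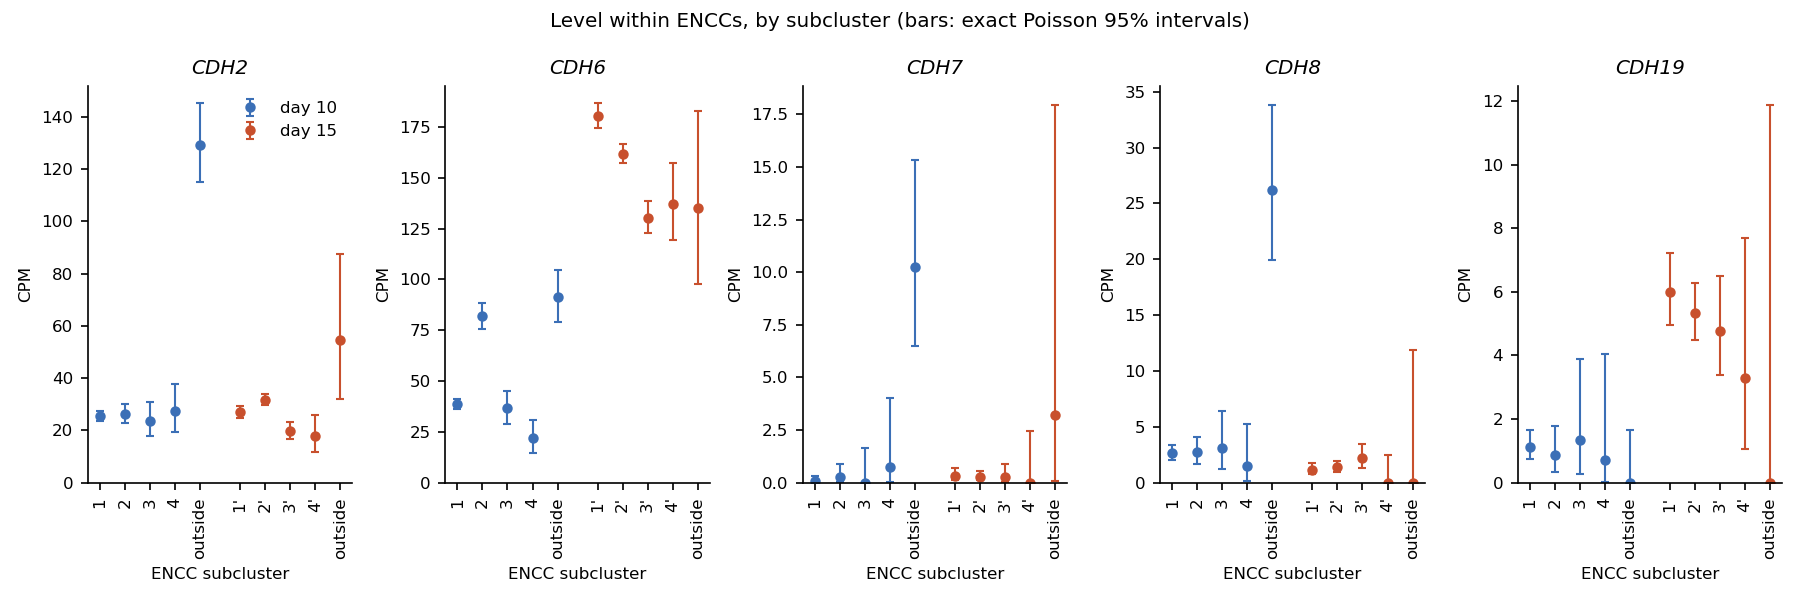
Level in CPM (linear axes starting at 0) of 5 cadherins in the ENCC subclusters of day 10 (blue) and day 15 (red) and in ENCCs outside them, with exact Poisson 95% intervals. ENCC 2 stood out for CDH6 at 81.9 CPM, and the day 10 cells outside the subclusters for CDH2 (129 CPM), CDH7 (10.2 CPM) and CDH8 (26.2 CPM).

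The next comparison asked which cadherins differed between the stages. Over whole libraries CDH6 had 62.1 CPM at day 10 and 156 CPM at day 15, a ratio of 2.52 (2.43 to 2.60). CDH8 had 11.4 and 1.74 CPM, 6.54-fold lower at day 15 (5.48 to 7.85). CDH2 had 64.2 and 46.0 CPM, a ratio of 0.717 (0.687 to 0.749), and CDH7 had 3.79 and 6.99 CPM, a ratio of 1.85 (1.59 to 2.14). The CDH7 difference rested on cells that the quality limits removed, since its log2 ratio was 0.88 over all cells and -0.33 over kept cells. These 4 members passed a minimum mean of 5 CPM over the 2 libraries. Of the 4, CDH6 was at least 2-fold higher and CDH8 at least 2-fold lower at day 15. Among all 9239 genes that passed, 8.35% were at least 2-fold higher and 8.59% at least 2-fold lower. CDH6 stood at percentile 94.3 and CDH8 at percentile 1.65 of the ratios.

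The other 3 members were too low for that comparison. CDH19 had 0.667 and 4.41 CPM, a ratio of 6.62 (4.88 to 9.17), from 47 and 375 UMIs. CDH11 had 2.23 and 1.28 CPM, a ratio of 0.576 (0.447 to 0.740), and CDH4 did not differ beyond the counting error (0.795, 0.429 to 1.47). Whole libraries mix cell types in different shares, since NEP cells were 24.8% of kept cells at day 10 and 1.95% at day 15. A lower level in a whole library therefore cannot be told apart from fewer cells of a type.

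Over ENCCs alone, CDH6 was again higher at day 15. It had 50.6 CPM at day 10 and 163 CPM at day 15, a ratio of 3.22 (3.06 to 3.38), and 3.40 (3.22 to 3.58) in the numbered subclusters. CDH19 had 1.00 and 5.39 CPM, a ratio of 5.38 (3.82 to 7.79), and 5.08 (3.60 to 7.36) in the numbered subclusters. CDH2 had 31.9 and 28.1 CPM, a ratio of 0.879 (0.814 to 0.948) that turned to 1.09 (1.00 to 1.18) in the numbered subclusters, so no direction is given for it. Of the 2 members that passed the minimum, CDH2 and CDH6, CDH6 was at least 2-fold higher and neither was at least 2-fold lower, against 8.15% higher and 5.91% lower among 8692 genes, and CDH6 stood at percentile 96.4.

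For the members that were low in ENCCs, the values turned on the cells outside the subclusters. CDH7 was 2.65-fold lower at day 15 (1.38 to 5.23) over all ENCCs but 1.87 times higher (0.648 to 6.59) in the numbered subclusters, from 5 and 15 UMIs. CDH8 was 2.94-fold lower (2.22 to 3.93) over all ENCCs and 1.89-fold lower (1.38 to 2.60) in the numbered subclusters. CDH11 was 8.06-fold lower (2.31 to 43.2), and in the numbered subclusters 6 and 3 UMIs left a ratio of 0.312 (0.0506 to 1.46). For CDH4, 3 and 16 UMIs gave a ratio of 3.53 (1.01 to 18.9), and in the numbered subclusters 1 and 16 UMIs gave 9.996 (1.55 to 419).

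**Figure D4:**
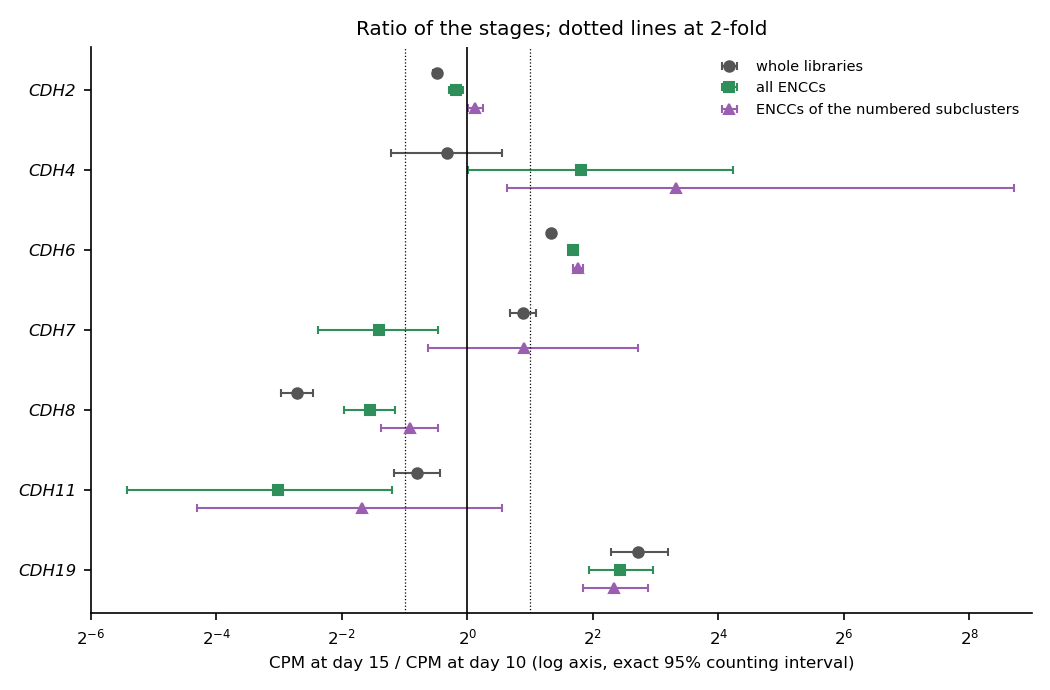
Ratio of CPM at day 15 to CPM at day 10 (log axis) for each cadherin over whole libraries, all ENCCs and ENCCs of the numbered subclusters, with exact 95% intervals for counting error. CDH6 (2.52, 3.22 and 3.40) and CDH19 (6.62, 5.38 and 5.08) lay right of the 2-fold line in all 3 sets of cells, and CDH7 changed sides with the cells used.

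**Figure D5:**
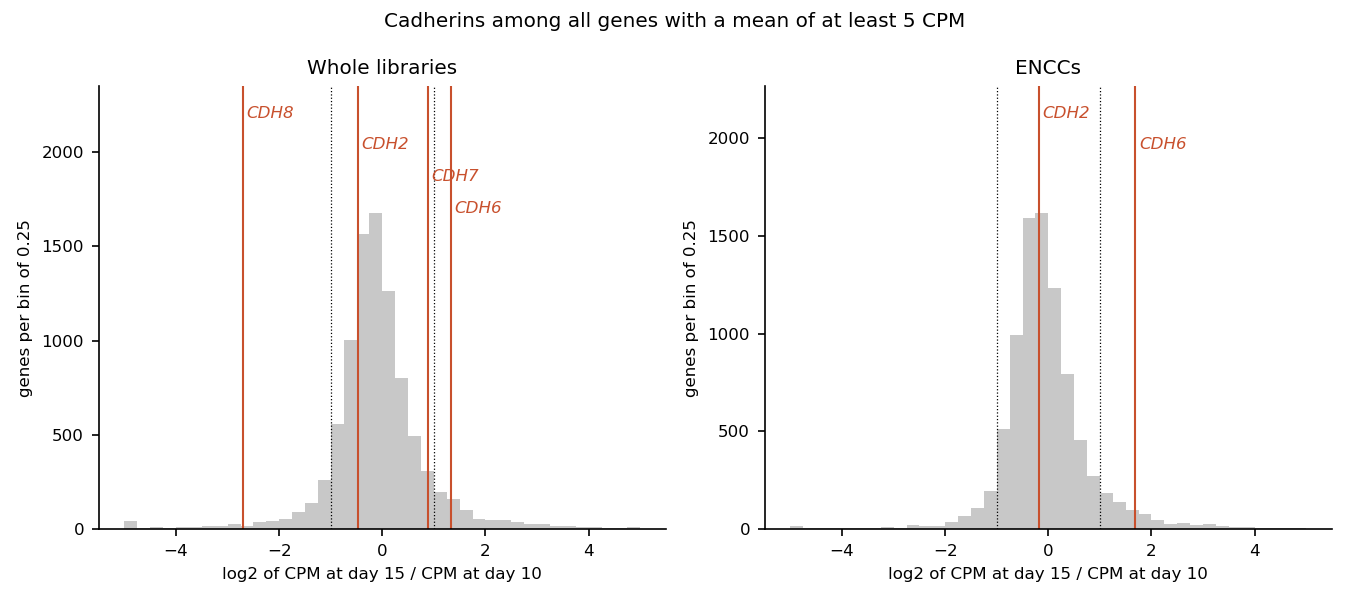
Number of genes per bin of the log2 ratio of day 15 to day 10, for genes with a mean of at least 5 CPM over whole libraries and over ENCCs, with the cadherins that passed as red lines and ratios beyond 5 placed in the end bins. CDH6 lay beyond the upper 2-fold line in both panels, CDH8 beyond the lower line in whole libraries, and CDH2 within 2-fold.

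In NEP cells, CDH6 was higher at day 15 (125 against 83.1 CPM, 95% interval of the ratio 1.25 to 1.79), as was CDH2 by 1.24 times (1.07 to 1.44), whereas CDH8 was 1.75-fold lower (1.09 to 2.99). NEP cells at day 15 were 104 and had 123 CPM of WNT2B against 827 CPM at day 10, so the class itself differed. In the placode classes CDH6 was 2.98 times (2.50 to 3.58) higher in CP1 at day 15 than in CP at day 10. In CP2 CDH6 was instead 2.42-fold lower (1.32 to 4.94) than in CP at day 10. A higher CDH6 level at day 15 was thus measured in ENCCs, NEP and CP1 but not in CP2, and the culture format moved together with the stage.

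ENCCs and NEP cells of day 10 came from the same library and so shared culture and depth. CDH2 was 4.24-fold lower in ENCCs (3.94 to 4.56), CDH8 6.77-fold lower (5.59 to 8.23) and CDH7 12.2-fold lower (8.07 to 19.1), and CDH6 was 1.64-fold lower (1.52 to 1.77). Without the 256 cells, these values were 5.28-fold, 10.5-fold, 64.3-fold and 1.73-fold lower. Of the 4 members that passed the minimum, 3 were at least 2-fold lower and 0 at least 2-fold higher, against 12.8% lower and 2.88% higher among 9282 genes. CDH11, below the minimum, was 15.5-fold lower in ENCCs (9.04 to 28.2), and 38.7-fold lower (17.1 to 108, from 6 UMIs in ENCCs) without the 256 cells. CDH19 alone of the 7 was higher in ENCCs.

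ENCCs and CP1 cells of day 15 gave a like picture. CDH2 was 4.09-fold lower in ENCCs (3.58 to 4.65), CDH7 153-fold lower (90.2 to 278) and CDH11 93.5-fold lower (25.2 to 516, from 3 UMIs in ENCCs). CDH6 was 1.21-fold lower in ENCCs (1.10 to 1.33), a difference whose direction depended on the scaling: with edgeR's trimmed mean of M values (TMM) its log2 ratio was 0.06, against -0.28. Of the 3 members that passed, 2 were at least 2-fold lower and 0 higher, against 16.1% lower and 6.81% higher among 9105 genes. The median log2 ratio of all genes was between -0.21 and -0.14 in the 4 comparisons and between 0.04 and 0.15 with TMM. With TMM the shares higher and lower were 11.1% and 6.25% for whole libraries, 10.5% and 4.09% for ENCCs, 6.24% and 9.28% for ENCC against NEP, and 12.3% and 10.8% for ENCC against CP1.

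Cells were also assigned a cell cycle phase by the authors. Over all ENCCs of day 10 CDH2 was higher in G1 (39.1 CPM, 35.7 to 42.7) than in S (28.2, 25.3 to 31.4) and G2M (28.1, 25.2 to 31.2), but in the numbered subclusters the phases were alike, at 24.9, 26.8 and 25.1 CPM. At day 15 in the numbered subclusters CDH2 was lowest in G1 (21.8 CPM, 19.7 to 24.1) and highest in S (32.8, 30.6 to 35.2), with 27.2 in G2M. CDH6 had 49.7, 51.3 and 43.0 CPM in G1, S and G2M at day 10 and 158, 171 and 155 CPM at day 15. The difference between stages was thus present in all 3 phases for CDH6, as for CDH19, which had between 0.426 and 1.81 CPM at day 10 and between 4.70 and 6.21 CPM at day 15.

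Whether CDH2 and CDH6 were found in the same cells was asked in thinned ENCCs of the numbered subclusters. At day 10, 8.16% of 625 cells with a CDH6 UMI also had a CDH2 UMI (6.14 to 10.6), against 6.88% of 4040 cells without (6.12 to 7.71). At day 15 the shares were 8.26% (7.05 to 9.61) and 8.31% (7.36 to 9.35). Intervals overlapped at both stages, and at this depth neither a joint nor a separate distribution of both cadherins was detectable.

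Other cell adhesion genes give the setting. Of 12 other classical and type II cadherins, 0 passed the minimum in any of the 4 comparisons. CDH1 was 19.3-fold lower at day 15 over whole libraries (12.4 to 31.6), from 4.77 to 0.247 CPM, with the NNE class present at day 10 only. Of 10 delta protocadherins, 5 passed over ENCCs, of which PCDH1 was 3.03 times higher at day 15 (2.50 to 3.70) and PCDH9 and PCDH10 were 4.27-fold and 3.51-fold lower. The median log2 ratio of these 5 was -0.83, against -0.14 over all genes. Among all 8692 genes compared over ENCCs, 8.15% were at least 2-fold higher and 5.91% at least 2-fold lower. Over whole libraries PCDH18 was also more than 2-fold lower (2.18-fold), beside PCDH9 and PCDH10, with PCDH1 again higher.

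Catenins tie cadherins to actin and were mostly within 2-fold between the stages. Of 12 listed catenins and anchors, 11 were in the count tables and 6 passed over ENCCs, of which CTNNB1 (β-catenin, also the effector of WNT signalling) was 2.03 times higher at day 15 (1.96 to 2.10), at 116 and 235 CPM. Over whole libraries 8 passed, of which CTNNA2, the α-catenin of neural cells, was 7.19-fold lower (6.21 to 8.36). In ENCCs its mean was under the minimum, from 6.87 to 0.412 CPM. Among enzymes that cut or trim cadherins, ADAM12 was 14.4 times higher in ENCCs at day 15 (11.2 to 18.9), at 1.68 and 24.2 CPM, the only one of 7 past 2-fold, and over whole libraries it was the only one of 8. Of 5 transcription factors known for repressing cadherins in the transition from epithelium to migrating cells, 4 passed over ENCCs and none was past 2-fold. ZEB1 was 2.44 times higher over whole libraries (2.24 to 2.67).

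Within day 10, ENCCs had 6.31 times the SNAI2 and 3.25 times the ZEB2 level of NEP cells. ZEB1 went the other way and was 1.83-fold lower in ENCCs (1.49 to 2.25). A link of these factors to the lower CDH2 level was not tested. CTNNA2, CTNND2, JUP and MLLT4 among the catenins and anchors, PCDH9, and the proteases ADAM19 and PSEN2 were at least 2-fold lower in ENCCs. Within day 15, ENCCs had 9.37 and 4.12 times the SNAI1 and SNAI2 level of CP1 cells and at least 2-fold more PCDH1 and PCDH7. CP1 held only 3 SNAI1 and 19 SNAI2 UMIs. With ENCCs of the numbered subclusters the intervals were 3.19 to 45.6 for SNAI1 and 2.64 to 6.88 for SNAI2. CTNNA2, JUP, ARVCF, PKP4, MLLT4, ADAM19, PCDH9 and ZEB1 were at least 2-fold lower than in CP1. CTNNA2, JUP, MLLT4, PCDH9 and ADAM19 were thus lower in ENCCs than in both neighbours, as CDH2 and CDH7 were. In ENCCs of the numbered subclusters the listed genes named here stayed past 2-fold on the same side in all 3 ENCC comparisons, and SNAI1 joined those higher than in NEP (2.01 against 1.95 times). The stage difference of PCDH9 was then 3.05-fold in place of 4.27-fold, and CTNND2 was 27.3-fold in place of 12.6-fold lower than in NEP.

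Genes with the most similar pattern were sought over 14 classes of at least 100 cells, by Pearson's correlation of log2(CPM + 1) among 9302 genes. These classes share libraries and differ in depth, and the values are descriptions. For CDH2 the closest genes were TSPAN3 (r = 0.953), SCD5 (0.931) and APLP1 (0.911), and for CDH6 they were GRB10 (0.949), MAP7D1 (0.936) and EFR3B (0.926). For CDH7 they were RAB6B (0.947), ABHD6 (0.943) and CELF4 (0.941), and for CDH8 they were LYPD1 (0.972), RP11-115D19.1 (0.965) and HEPH (0.965). CDH4, CDH11 and CDH19 had a mean below 5 CPM over the classes and were not searched.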

How the data were processed

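Single-cell 3′ RNA libraries (Chromium v3.1) of H9-derived cells were sequenced at 2 stages, 1 library per stage. The authors deposited raw counts of UMIs per gene and cell and, per cell, the percent of mitochondrial and ribosomal UMIs, a phase, a cell type and an ENCC subcluster. Their methods name kallisto and bustools for the matrices, and the submitters' processing notes name Cell Ranger, Seurat 4.0.4 and GRCh38. Cell types came from Louvain clusters of each library. Cells removed by the authors' limits stay in the tables and enter whole-library sums. The authors demultiplexed hashtags in Seurat, and no doublets were removed here.

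Counts were summed per class and scaled by total UMIs (10x 3′ counts are not length-scaled). Sums carry exact Poisson intervals, shares Clopper-Pearson intervals and ratios exact conditional binomial intervals, at 95%. A count of 0 was bounded by 3 UMIs. Genes with a mean of at least 5 CPM were compared, and called at 2-fold, by size alone. Members and gene lists were chosen with earlier results of these data known. The text names the 7 members, listed genes past 2-fold and the 3 genes closest in pattern to each member. No gene overlapping a member in GENCODE 29 was found by name in the count table. Names in that table such as RP11-115D19.1 have another form than GENCODE 29 names such as AC110015.1, so the name search cannot exclude overlaps. On the same strand, DUX4L51 overlapped an exon of CDH6 and AC010533.1 an exon of CDH11. Fold calls and ratio intervals were tested on simulated class sums with Poisson error alone. The simulation held no variation between cells or libraries, so it does not cover these. Alternatives were TMM factors (edgeR 4.0.16), totals without mitochondrial and ribosomal protein genes, per-cell means, CPM + 1, other minimums and folds, thinning, G1 cells, leaving out the 6% deepest cells, and, added after seeing the data, ENCCs of numbered subclusters and cells of 5000 to 15000 UMIs.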

Additional observations from a re-analysis of the deposited data

Results flagged for a closer look

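Cells that the authors' quality limits removed carry no cell type, and some cadherins were more than 2-fold higher in them than in the cells kept. At day 10 this was CDH7, with 6.27 CPM in 2332 removed cells against 3.11 CPM in kept cells, a ratio of 2.02 (95% interval 1.55 to 2.61). At day 15 the 984 removed cells had 74.2 CPM of CDH2 against 34.6, 18.1 CPM of CDH7 against 2.47, and 2.72 CPM of CDH11 against 0.696. The day 15 ratios were 2.15 (2.01 to 2.29), 7.32 (6.07 to 8.87) and 3.91 (2.62 to 5.89). These removed cells were deep, with a median of 21367 UMIs against 11089, and 445 of the 594 CDH7 UMIs of that library lay in them. The 6 listed placode markers summed to 503 CPM in them and to 62.5 CPM in kept cells, with NEUROD1 at 225 against 25.4 CPM. The 6 listed neuron markers summed to 967 against 158 CPM, and the 6 NNE markers to 83.5 against 32.9 CPM. The sums of the ENCC, NEP and Mes markers were lower in the removed cells. All listed placode and neuron markers were detected in both sets, and their part in the CDH7 level was not tested. CDH6 and CDH19 were not higher in the removed cells of day 15, at 144 against 161 CPM and 2.92 against 5.02 CPM.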

How the results depend on the processing

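CDH6 stayed at least 2-fold higher at day 15 over ENCCs under every alternative run. The count of members at least 2-fold apart moved by more than 1.5 times in these cases. For whole libraries it was 1 in place of 2 with a minimum of 20 CPM (CDH6) and 1 at 3-fold (CDH8). For ENCCs of both stages it was 3 in place of 1 with totals without mitochondrial and ribosomal protein genes, where CDH8 and CDH19 passed the minimum, and 6 with all genes of at least 1 UMI. For ENCC against NEP it was 6 in place of 3 with all such genes and 1 with a minimum of 20 CPM, and for ENCC against CP1 it was 5 in place of 2 with all such genes. These 5 include CDH4, with 16 UMIs in ENCCs and 0 in CP1. CDH4 was called lower in ENCCs only because 0 was set to 3 UMIs in the small CP1 class, so this call shows no difference. The share of all genes called is given above only for the main setting and for TMM. The counts of members under the other settings therefore have no such share beside them. No called ratio changed sign. With TMM, CDH7 joined the members higher over whole libraries (3 in place of 2), but its log2 ratio was -0.33 over kept cells and -0.37 over cells of 5000 to 15000 UMIs, against 0.88 over all. Of 252 log2 ratios of single members, 77 moved beyond their counting interval, as did 67 of 84 shares of cells with a UMI. Leaving out replicates and blocking by them was not run. No paired analysis was possible because each stage has 1 library. Depth limits CDH4, CDH11 and CDH7 in ENCCs, with 3 to 28 UMIs a stage.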
